A study of Homo sapiens with 6 samples.

Results

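The regulators of G protein signalling (RGS proteins) were followed here through 9 genes: RGS2, RGS4, RGS5, RGS10, RGS12, RGS16, RGS17, RGS19 and RGS20. They were taken as the probe sets whose platform annotation names 1 of these genes and no other, which gave 1 probe set for each of the 9 genes, out of 18404 named genes on the array. The set was selected on the measured group differences of these same arrays, in all 3 comparisons, with RGS2 standing out for one of the largest. Their differences are therefore given as a description and not as a test.

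RNA came from H226, a human lung squamous carcinoma cell line that carried an inducible shRNA against p63 (shp63) in all 3 groups. The 2 control arrays came from untreated cells with the shRNA off. For the 2 Nutlin-3 arrays the shRNA was likewise off and the cells had 12 h of 10 µM Nutlin-3, an MDM2 inhibitor that raises p53. The 2 shp63 ON arrays came from cells whose shRNA had been switched on by doxycycline (1 µg/mL, 48 h). No array had doxycycline without the shRNA on, so the drug, its longer duration and the knockdown cannot be told apart, and the labels do not say whether the line was 1 clone. The knockdown was not checked, since the target of the shRNA is not analysed here.

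RGS proteins end G protein signals. A receptor loads GTP onto a G alpha subunit, and the RGS domain speeds the hydrolysis of that GTP, so the subunit returns to its resting state. Small members such as RGS2, RGS4, RGS5 and RGS16 consist of little more than the RGS domain, and RGS2 prefers the Gq class, which drives phospholipase C beta, over the Gi class, which inhibits adenylyl cyclase. RGS10 and RGS12 belong to a group that acts on Gi, with RGS12 a large scaffold protein, and RGS17, RGS19 and RGS20 form a group with a cysteine string that acts on Gi and Gz. Many small RGS genes are induced quickly by stimuli, and RGS16 has been described as a p53-induced gene.

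All values were log2 probe set intensities from 6 arrays, and the array number limits the precision. Replicate arrays correlated across genes at r = 0.997 to 0.998. Array medians differed by group, at 6.63 to 6.64 in control, 6.57 in both Nutlin-3 arrays and 6.69 to 6.70 in shp63 ON. An exact permutation test of 2 arrays against 2 cannot give a two-sided p below 0.333, so calls on other genes came from limma across all genes. Whether replicates were separate cultures is unstated, and p-values then measure the spread between these samples, which may be technical. Of 8 squamous and basal markers, keratin 5 (KRT5, mean 12.18 over the arrays) and the serpin SERPINB5 (11.26) had high signal, while SOX2 (5.75) was low. KRT6A and KRT17 were not analysed here. Of 5 mesothelial markers, BNC1 (9.94) and MSLN (9.90) had high signal, and CALB2 (6.25), WT1 (6.20) and LRRN4 (5.99) were lower. The list averaged 7.54 to 7.62 per array in control, 7.69 to 7.70 with Nutlin-3 and 7.66 to 7.72 in shp63 ON. BNC1 was higher with Nutlin-3 (0.68) and lower in shp63 ON (−0.37), both past the limma threshold. MSLN (0.27) and WT1 (0.26) went the other way in shp63 ON and also passed. Neither passed with Nutlin-3, and CALB2 and LRRN4 passed in neither comparison. The 5 leukocyte markers averaged 5.34 in control, 5.19 to 5.25 with Nutlin-3 and 5.53 to 5.54 in shp63 ON. PTPRC was the lowest of them (4.32), and CD14 (6.33) was the 1 that passed, higher by 0.62 in shp63 ON. The 5 endothelial markers averaged 5.75 to 5.86, 5.63 to 5.66 and 5.93 to 6.04 in the same order of groups. CDH5, the highest of these (8.58), was lower with Nutlin-3 (−0.47) and higher in shp63 ON (0.57), both past the limma threshold. TEK, with a low mean of 4.60, passed as higher with Nutlin-3 (0.30), opposite to CDH5. VWF, with a low mean of 5.60, passed as higher in shp63 ON (0.31). PECAM1 and KDR passed in neither. The part of these marker shifts in the RGS values was not tested.

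The promoter sequence of RGS2 is shown because that gene had by far the widest range among the 9. Those of RGS16 and RGS10 stand beside it because RGS16 was the other small RGS gene that was higher with Nutlin-3 and RGS10 was lower in both treated groups. Each is the 250 bases before the RefSeq start site, 5′ to 3′, and RefSeq windows were found for 8 of the 9 genes. Capitals mark matches, on either strand, to the GC box GGGCGG, the CCAAT box CCAAT, and TGACG, the core of a cyclic AMP response element.
RGS2 (GRCh38.p14, chr1:192808789-192809038, plus strand): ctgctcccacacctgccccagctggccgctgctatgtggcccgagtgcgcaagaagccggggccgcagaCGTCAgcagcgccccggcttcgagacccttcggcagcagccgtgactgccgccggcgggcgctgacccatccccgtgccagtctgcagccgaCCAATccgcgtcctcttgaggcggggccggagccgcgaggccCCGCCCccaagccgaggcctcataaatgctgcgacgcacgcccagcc
RGS16 (GRCh38.p14, chr1:182604390-182604639, minus strand): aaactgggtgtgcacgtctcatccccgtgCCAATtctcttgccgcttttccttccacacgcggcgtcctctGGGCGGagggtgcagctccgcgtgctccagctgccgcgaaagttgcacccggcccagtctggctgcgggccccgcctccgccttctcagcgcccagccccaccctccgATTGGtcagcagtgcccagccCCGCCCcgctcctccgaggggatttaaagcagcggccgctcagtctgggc
RGS10 (GRCh38.p14, chr10:119542720-119542969, minus strand): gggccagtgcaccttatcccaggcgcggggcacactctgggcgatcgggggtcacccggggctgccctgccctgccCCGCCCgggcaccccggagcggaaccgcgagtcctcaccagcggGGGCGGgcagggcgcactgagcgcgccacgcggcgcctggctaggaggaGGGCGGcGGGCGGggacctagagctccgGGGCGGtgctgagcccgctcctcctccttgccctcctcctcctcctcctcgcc

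The RGS2 window held 1 TGACG match, on the minus strand from position -181, a CCAAT box from -89 and a GC box on the minus strand from -47, counted from the base before the start site as -1. Of 35116 RefSeq windows of this length, 21.2% held TGACG, 32% a CCAAT box and 42.6% a GC box. The RGS16 window held 2 CCAAT boxes and 2 GC boxes, and the first RGS10 window held 5 GC boxes. The base composition was GC-rich in all 3, at 72.8% for RGS2, 68.4% for RGS16 and 77.2% for RGS10, against a median of 58% over all windows. The TATA box TATAAA (10.7% of windows), the AP-1 site TGANTCA (6.57%), the full cyclic AMP response element TGACGTCA (1.65%), which contains TGACG, the E-box CACGTG (6.34%) and the p53 family decamer with no mismatch (5.57%) were not in these 3 windows. Among the other windows of the 9 genes, the p53 family decamer matched in the second of 2 RGS10 windows and in 2 of 5 RGS12 windows. A match is a description of the letters, and its absence says nothing about binding elsewhere.

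RGS2 was higher with Nutlin-3 and lower in shp63 ON. Its log2 intensity was 9.65 and 9.76 in control, 11.54 and 11.48 with Nutlin-3, and 8.00 and 7.85 in shp63 ON. The 3 groups did not overlap, and the Nutlin-3 arrays lay highest and the shp63 ON arrays lowest. The group means were 9.70 ± 0.08 (SD, n = 2), 11.51 ± 0.04 (n = 2) and 7.93 ± 0.11 (n = 2). Nutlin-3 stood 1.81 above control on the log2 scale (limma SE 0.08), or 3.50-fold. The difference of shp63 ON from control was −1.78 (SE 0.08), 3.43-fold lower. Between the treated groups the difference was −3.58 (SE 0.08), or 12.0-fold. By size, RGS2 held place 21 among the rises with Nutlin-3, place 69 among the falls in shp63 ON, and place 2 among the genes lower in shp63 ON than in Nutlin-3, of 18404 genes each.

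**Figure D1:**
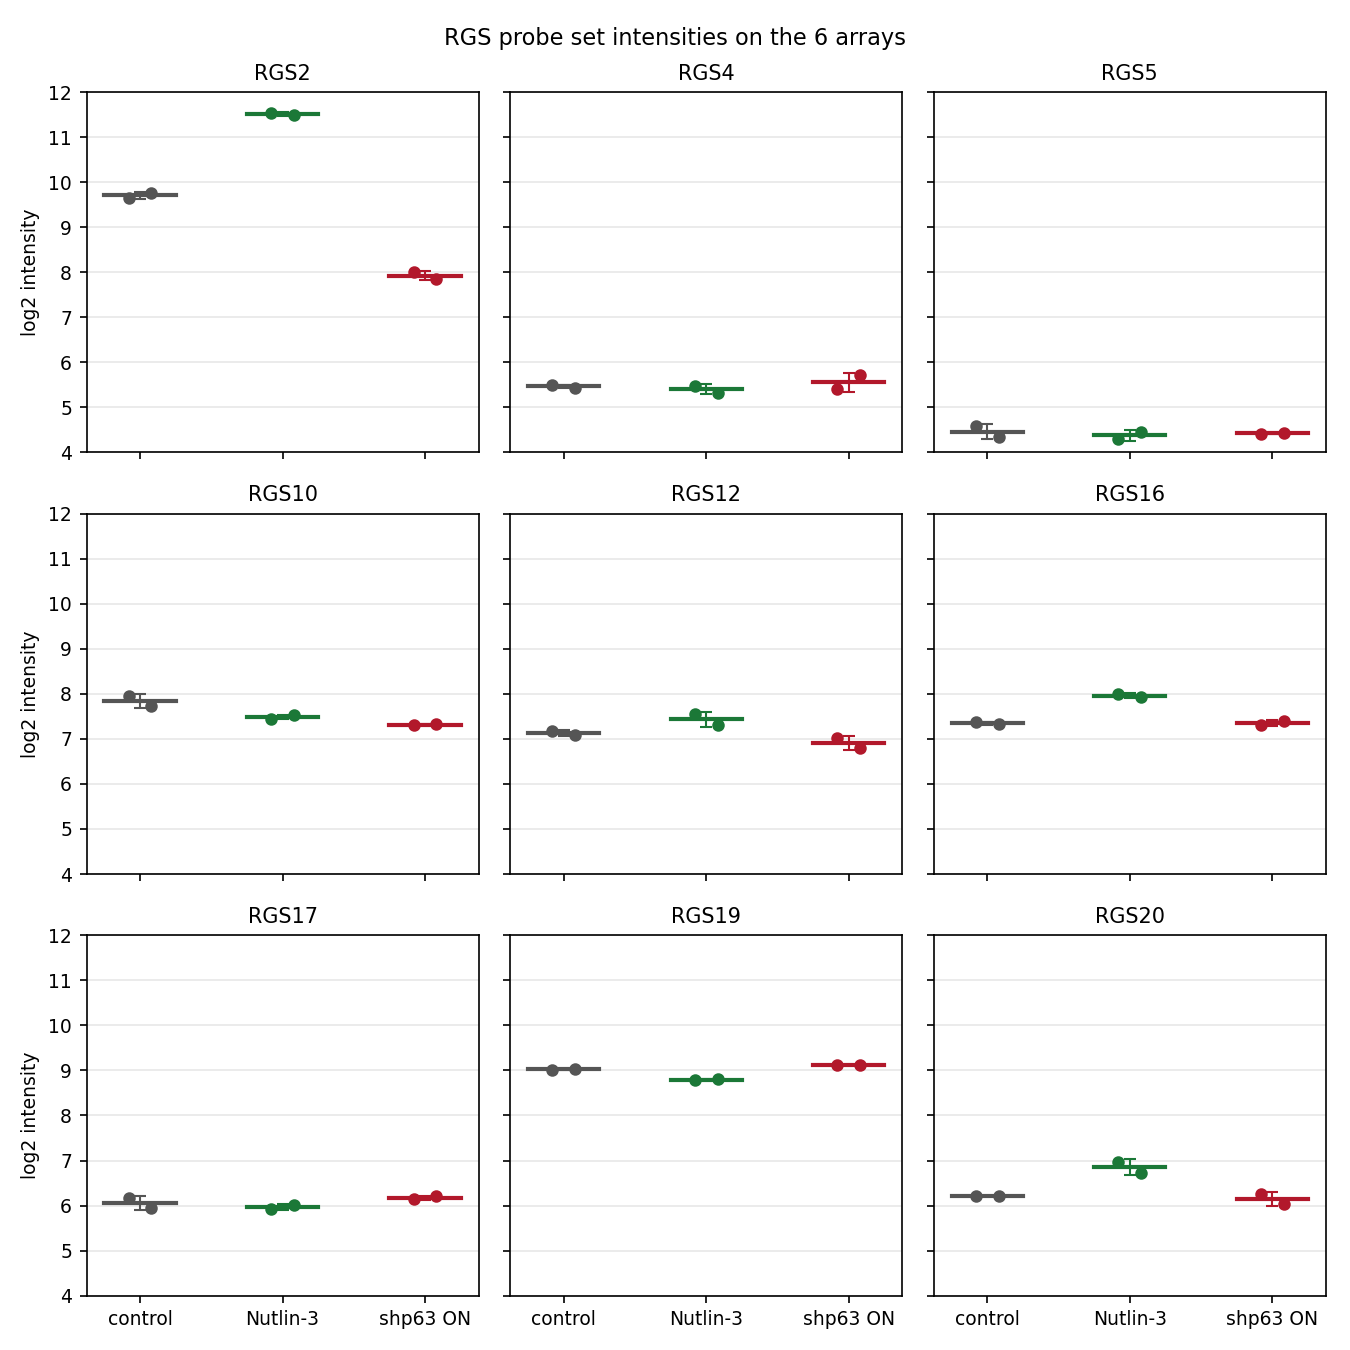
Log2 probe set intensity of the 9 RGS genes, 1 panel per gene on a common axis from 4 to 12. Points are the 2 arrays of each group, and lines and bars are the mean ± SD. RGS2 runs from 7.93 in shp63 ON to 11.51 with Nutlin-3, whereas RGS4 and RGS5 stay near the bottom of the axis in all groups.

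RGS16, a small RGS protein that acts on both Gi and Gq, was higher with Nutlin-3 alone. Its values were 7.37 and 7.33 in control, 8.01 and 7.92 with Nutlin-3, and 7.30 and 7.40 in shp63 ON. Nutlin-3 was apart from both other groups, while control and shp63 ON overlapped. The difference from control was 0.61 with Nutlin-3 (limma SE 0.07, 1.53-fold) and 0.0025 in shp63 ON (SE 0.07), a difference smaller than the spread between replicates.

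RGS4 and RGS5, the other small members, showed little. Both are known from smooth muscle, pericytes or brain. RGS4 stood at 5.49 and 5.44 in control, 5.48 and 5.33 with Nutlin-3, and 5.40 and 5.71 in shp63 ON. RGS5 was measured at 4.58 and 4.35, at 4.29 and 4.46, and at 4.42 and 4.43 in the same order. The groups of both genes overlapped in every comparison. Both signals lie under 5.85, the lower quartile of gene means on these arrays, although probe sets differ in response and the table holds no detection calls. Another 2 probe sets that name RGS4 together with other genes were left out. RGS5 is itself used as a pericyte marker. The 6 pericyte and smooth muscle markers averaged 6.64 to 6.66 in control, 6.50 with Nutlin-3 and 6.97 to 7.00 in shp63 ON. Over the arrays NOTCH3 was the highest (8.56), with CSPG4 at 7.57 and PDGFRB at 5.90. Of these, 2 fell with Nutlin-3 (limma), CSPG4 (−0.47) and DES (−0.28). In shp63 ON 3 rose, CSPG4 (0.94), DES (0.35) and PDGFRB (0.25). NOTCH3, MYH11 and KCNJ8 passed in neither comparison with control. The part of these markers in the RGS values was not tested.

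RGS10 was lower in both treated groups. It is a short protein of the Gi-directed group. The values were 7.95 and 7.73 in control, 7.45 and 7.52 with Nutlin-3, and 7.31 and 7.33 in shp63 ON. Both treated groups lay under both control arrays. The difference from control was −0.36 with Nutlin-3 and −0.52 in shp63 ON (limma SE 0.08 each), or 1.28-fold and 1.44-fold lower. The treated groups differed from each other by −0.16 (SE 0.08), without overlap. The control mean was 7.84 ± 0.15 (SD, n = 2), so the control arrays differed from each other more than the treated groups did.

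RGS12, the multidomain scaffold, had 7.17 and 7.09 in control, 7.55 and 7.32 with Nutlin-3, and 7.02 and 6.80 in shp63 ON. The order of the group means was that of RGS2, at a much smaller size. The difference from control was 0.30 with Nutlin-3 and −0.22 in shp63 ON (limma SE 0.10 each), and neither passed the threshold used for other genes, an adjusted p under 0.05. Without nutlin replicate 1 the first was 0.18, and without shp63_on replicate 2 the second was −0.11. The treated groups differed by −0.52 (SE 0.10).

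The cysteine-string members did not move as a group. RGS20 was at 6.22 and 6.21 in control, 6.97 and 6.72 with Nutlin-3, and 6.25 and 6.04 in shp63 ON. It was thus higher with Nutlin-3, by 0.63 (limma SE 0.10, 1.55-fold), and shp63 ON overlapped control (−0.07, SE 0.10). RGS19 was at 9.01 and 9.03 in control, 8.78 and 8.81 with Nutlin-3, and 9.11 in each shp63 ON array. Its Nutlin-3 arrays were the lowest (−0.22, SE 0.06), opposite in direction to RGS20. The shp63 ON arrays were above control by 0.09 (SE 0.06), with 0.03 after median centring and 0.18 after quantile normalization. RGS17 was at 6.17 and 5.94, 5.92 and 6.01, and 6.14 and 6.21, and both treated groups overlapped control.

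**Figure D2:**
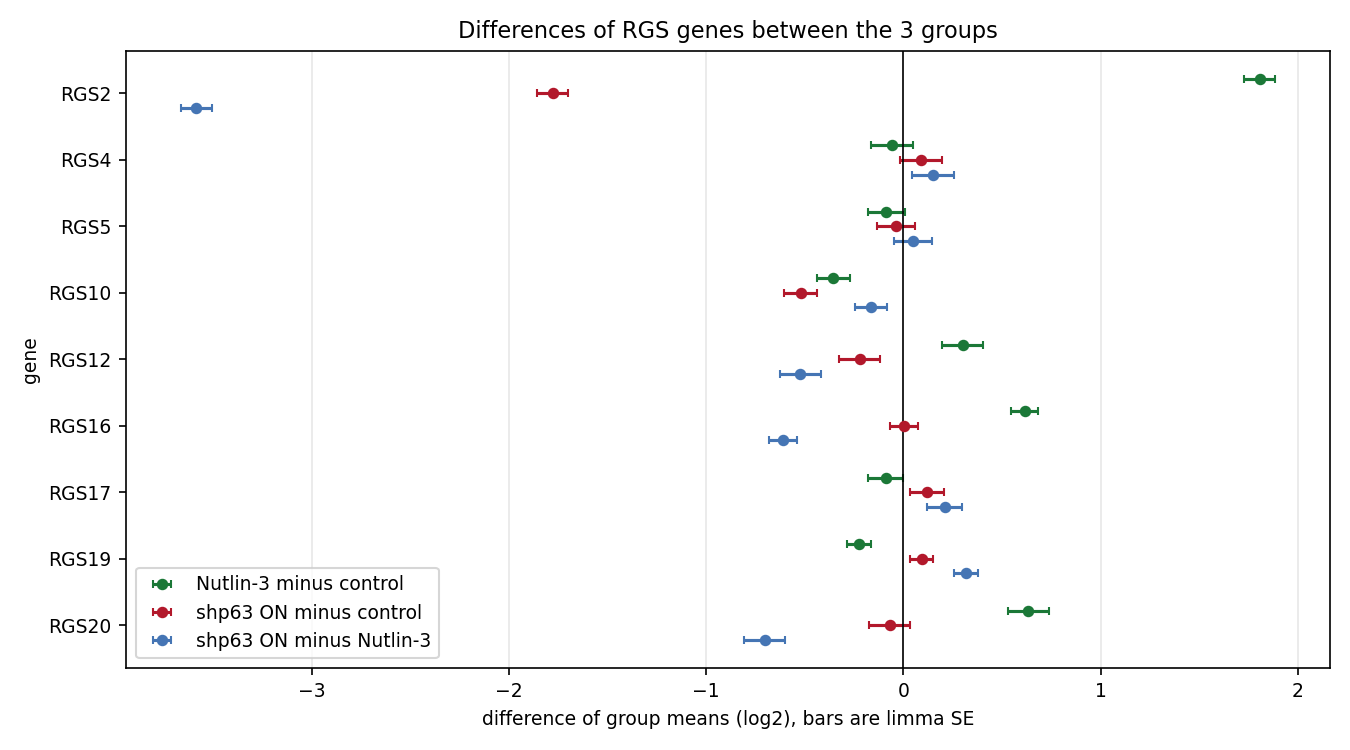
Differences of group means (log2) for each RGS gene in the 3 comparisons, with bars of 1 limma standard error. RGS2 lies at 1.81, −1.78 and −3.58, and all other values lie between −0.70 and 0.63.

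In order of level, RGS2 and RGS12 had Nutlin-3 above control above shp63 ON with no overlap between neighbours. For RGS16 and RGS20, Nutlin-3 was highest and the other groups overlapped. For RGS10 the order was control, Nutlin-3, shp63 ON, and for RGS19 it was shp63 ON, control, Nutlin-3, each without overlap. With 2 arrays a group, groups of unrelated genes are often apart: 60.5% of all genes did not overlap between Nutlin-3 and control (30.2% higher and 30.3% lower), against 6 of the 9 (4 higher and 2 lower). Between shp63 ON and control it was 71.7% (41.3% higher and 30.4% lower), against 4 of the 9 (1 higher and 3 lower). Between shp63 ON and Nutlin-3 it was 76.7% (41.1% higher and 35.7% lower), against 7 of the 9 (2 higher and 5 lower).

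At the threshold used for all genes, 5 of the 9 were called with Nutlin-3, namely RGS2, RGS16 and RGS20 as higher and RGS10 and RGS19 as lower, where 18.5% of all genes were called (9.64% higher and 8.89% lower). In shp63 ON, 2 of the 9 were called, RGS2 and RGS10, both lower, where 36.2% of all genes were called (19.7% higher and 16.5% lower). Between shp63 ON and Nutlin-3, 5 of the 9 were called, RGS19 as higher and RGS2, RGS12, RGS16 and RGS20 as lower, where 51.5% of all genes were called (27.5% higher and 24% lower). With Nutlin-3, RGS10 was called in 12 of 17 alternative settings and RGS19 in 7 of 17. These comparisons chose the genes, so nothing is read from the counts. The median differences of the 9 genes were −0.06, −0.04 and −0.16, against −0.0025, 0.04 and 0.03 over all genes. Both comparisons with control use the same control arrays.

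**Figure D3:**
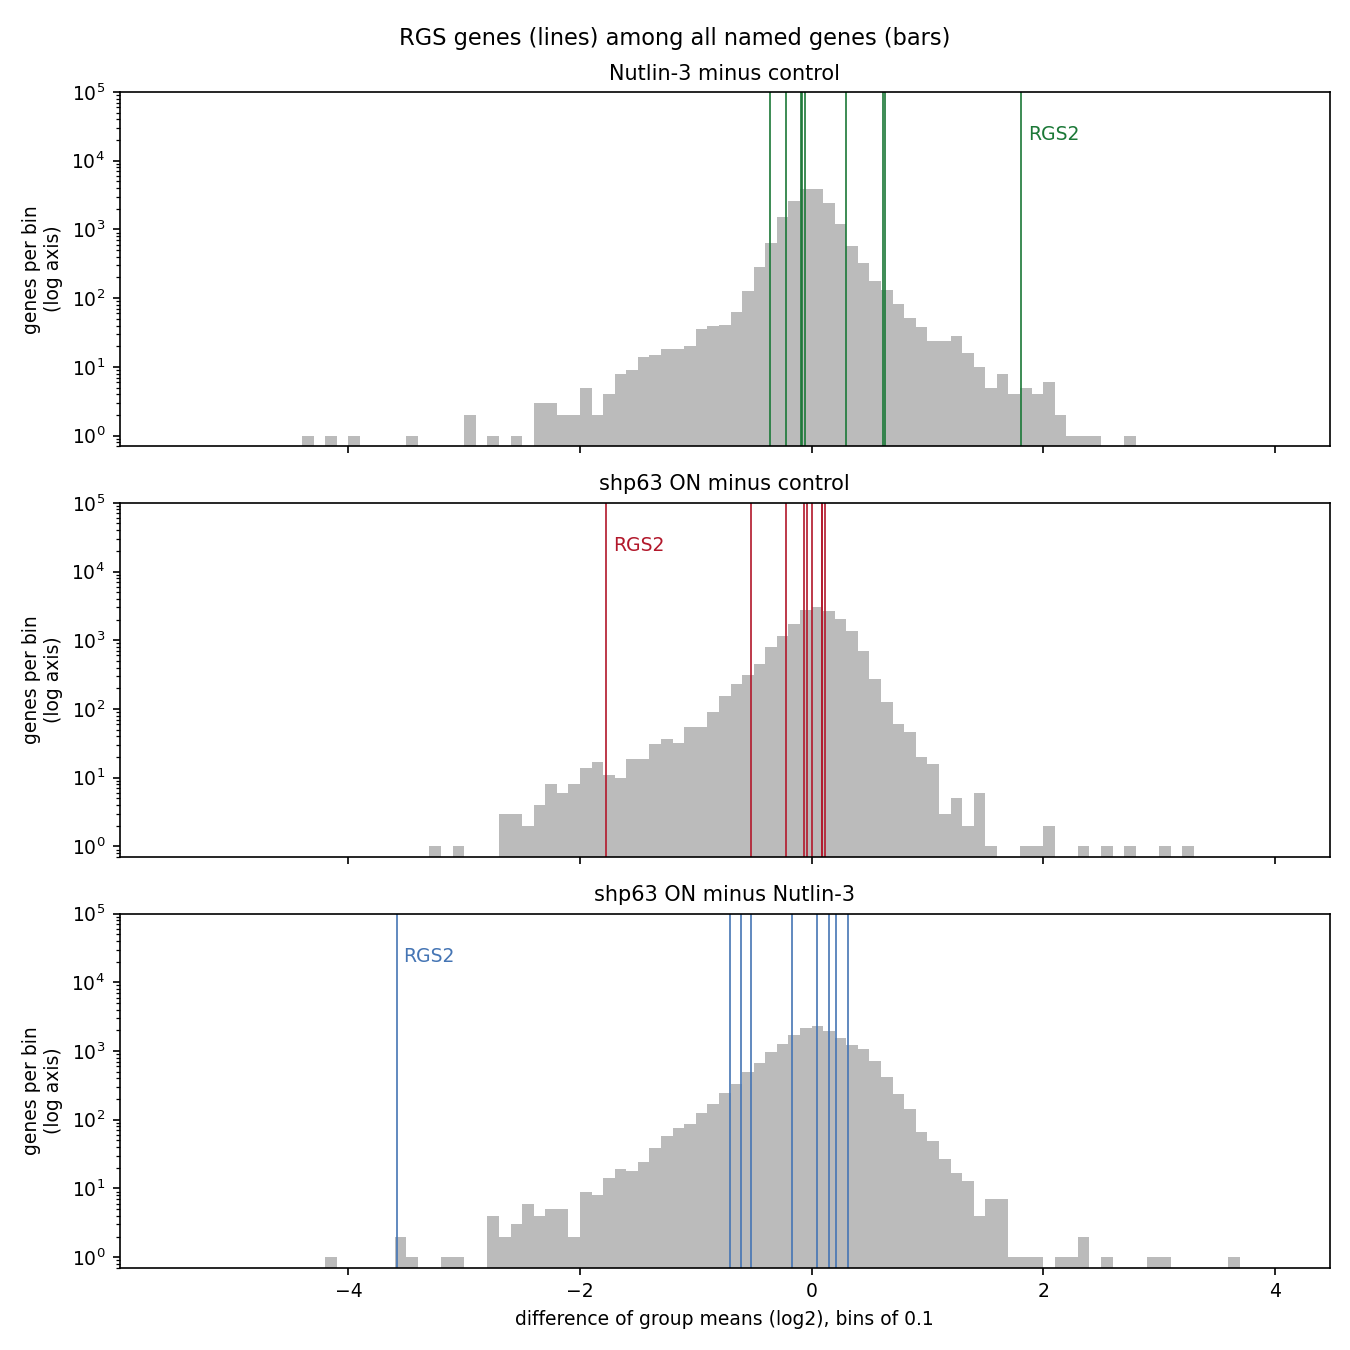
Distribution of the differences of all 18404 named genes in bins of 0.1 (grey, log axis for genes per bin) in the 3 comparisons, with a coloured line at each RGS gene. RGS2 lies in the far tail of each panel, at 1.81, −1.78 and −3.58. RGS20 (place 388) and RGS16 (place 420) lie in the upper tail with Nutlin-3, and the other lines lie nearer the centre.

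The gene whose pattern came nearest to RGS2 was S100A2, a calcium-binding protein of basal epithelium. Nearness was the root mean square distance over the 4 treated arrays, each as its difference from the control mean. S100A2 differed from control by 1.33 with Nutlin-3 and −2.13 in shp63 ON, at a distance of 0.43. RAD51C, a DNA recombination protein, stood at 1.50 and −1.21 (distance 0.48). IKBIP, an IKK-binding protein, stood at 1.54 and −1.23 (0.49). KCNJ15, a potassium channel, stood at 1.11 and −1.39 (0.57), and CASP1, the protease that matures interleukin 1 beta, at 1.24 and −1.20 (0.58). No named gene lay closer than 0.43. The mean of the squamous marker list had the same order of groups, but its genes differed. With Nutlin-3, 4 of the 8 rose (limma), namely the desmosomal cadherins DSG3 (2.03) and DSC3 (0.76), CLCA2 (1.84) and SERPINB5 (0.45). In shp63 ON, DSG3 (−0.73), DSC3 (−0.57), CLCA2 (−0.44) and KRT5 (−0.37) fell and PKP1 rose (0.36). With Nutlin-3, PKP1 (−0.12) and KRT14 (−0.26) did not pass and stood below control. SOX2 passed in neither comparison (−0.07 and −0.02), nor did KRT14 in shp63 ON (0.03). The list mean per array was 9.02 to 9.06 in control, 9.61 to 9.64 with Nutlin-3 and 8.81 in shp63 ON, and its part in the RGS2 values was not tested.

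By RefSeq gene order (GRCh38.p14), 4 of the 9 genes, RGS2, RGS4, RGS5 and RGS16, are on chromosome 1. RGS2 sits at the end of a run of RGS genes, after RGS18, RGS21, RGS1 and RGS13. None of these 4 passed in either comparison with control (limma adjusted p = 0.0864 for RGS1 with Nutlin-3, the lowest), and their differences ran from −0.08 to 0.22. Their means over the arrays were low, at 4.15, 4.81, 4.23 and 5.23 in that order. All lay under the lower quartile of gene means (5.85), so a change at these genes could be missed. On the other side lies UCHL5, a deubiquitinase of the proteasome, named here for its position. It fell in shp63 ON (log2 difference −0.67, SE 0.08, limma adjusted p = 0.000808). With Nutlin-3 it was also called lower (−0.28, limma adjusted p = 0.0471), opposite to RGS2. This call was lost without any 1 control or Nutlin-3 array and under median centring. The next genes along, RO60, GLRX2 and CDC73, did not pass. RGS4 and RGS5 are neighbours of each other.

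The rest of the pathway was read from 7 lists of G protein genes by role, 112 genes with a value. With Nutlin-3, 11 rose and 9 fell (17.9% called, against 18.5% of all genes), and the median difference was −0.01, against −0.0025 over all genes. The count was 9 without control replicate 1, 12 without control replicate 2, 13 without nutlin replicate 1 and 12 without nutlin replicate 2. In shp63 ON, 25 rose and 18 fell (38.4%, against 36.2%), with a median of 0.02 against 0.04. It was 24 and 21 without control replicate 1 or 2, and 23 and 28 without shp63_on replicate 1 or 2. Centring each array on its median, which shifts all genes, turned the splits to 16 rises and 5 falls with Nutlin-3 and to 14 rises and 21 falls in shp63 ON. Pooled over the lists, the shares called were close to those of all genes, but single lists ran from 0% (other RGS genes) to 36.7% (receptors) with Nutlin-3 and from 8.33% to 58.3% (receptor kinases and modulators) in shp63 ON. Apart from GNA11, GNAQ and GNA14, given for their class, the genes below were named by the size of their change.

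Of the 12 other RGS genes, none passed with Nutlin-3 (limma, adjusted p under 0.05), with differences from −0.20 to 0.22. For RGS1, RGS6, RGS7, RGS9, RGS13, RGS18, RGS21 and RGS22 the mean lay under 5.85, the lower quartile of gene means. Weak signal therefore limits what these show. In shp63 ON, RGS11, a partner of the G beta protein GNB5, rose (0.32, SE 0.06, limma adjusted p = 0.00821), a call lost without control replicate 2 (limma adjusted p = 0.0616). The other 11 did not pass. Among 12 RGS partners and proteins with an RGS homology domain, AKAP10, a kinase anchor protein, rose with Nutlin-3 (0.31) and AXIN1, a scaffold of beta-catenin degradation, fell in shp63 ON (−0.27). The AKAP10 call was lost without control replicate 1, control replicate 2 or nutlin replicate 1, and the AXIN1 call without any 1 control or shp63_on array.

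G alpha subunits are the direct substrates of RGS proteins. Of 15, 2 rose and 1 fell with Nutlin-3, and 3 rose and 4 fell in shp63 ON. GNAI1, an inhibitory subunit, had 7.27 and 7.20 in control, 8.15 and 7.98 with Nutlin-3, and 6.79 and 6.83 in shp63 ON. The 3 groups were apart in the same order as for RGS2. It rose by 0.83 with Nutlin-3 (SE 0.08, limma adjusted p = 0.000349) and fell by 0.43 in shp63 ON (difference −0.43, limma adjusted p = 0.00476). GNA15, a subunit of the Gq class, had 10.04 and 10.18 in control, 10.70 in each Nutlin-3 array, and 9.76 and 9.83 in shp63 ON. It rose with Nutlin-3 (0.59, SE 0.07, limma adjusted p = 0.00135) and fell in shp63 ON (−0.31, limma adjusted p = 0.0126), the latter not without control replicate 2 or shp63_on replicate 1. GNA11, also of the Gq class, had the reverse order (−0.25 with Nutlin-3 and 0.25 in shp63 ON). Both differences passed limma, but neither did under median centring. Of the same class, GNAQ (0.04 and −0.04) and the weak GNA14 (−0.02 and 0.03, mean 5.09) did not pass. GNAL, the olfactory stimulatory subunit (−0.73), and GNA12 (−0.37) fell in shp63 ON only among the comparisons with control. Their differences with Nutlin-3 were 0.11 and 0.01 and did not pass, and both were lower in shp63 ON than with Nutlin-3 by limma.

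G beta and gamma subunits, which anchor G alpha and signal on their own, had 1 fall with Nutlin-3 and 3 rises and 2 falls in shp63 ON, out of 15. GNG8 was the gene that fell with Nutlin-3 (−0.50, SE 0.13), and the call was lost without any 1 control or nutlin array. It was also lost under median centring, quantile and cyclic loess normalization. In shp63 ON, GNG7 (0.42, SE 0.07) and GNG4 (0.34) rose and GNB4 (−0.36) fell. The GNG4 call was lost without either control array, without shp63_on replicate 2, or under cyclic loess normalization.

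Among 16 effectors, 1 fell with Nutlin-3, and 4 rose and 3 fell in shp63 ON. ADCY9, an adenylyl cyclase that makes cyclic AMP, had the largest difference from control of the 112 genes. It stood at 8.79 and 8.84 in control, 8.77 and 8.78 with Nutlin-3, and 10.19 and 10.09 in shp63 ON, where it rose by 1.32 (SE 0.07, 2.50-fold, limma adjusted p = 1.6e-05). Another adenylyl cyclase, ADCY6, also rose there (0.45, SE 0.06), while ADCY3 fell in both (−0.48 with Nutlin-3 and −0.63 in shp63 ON, SE 0.07). PLCB1, a phospholipase C beta driven by the Gq class, fell in shp63 ON (−0.52, SE 0.10, limma adjusted p = 0.00688).

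Of 12 receptor kinases, arrestins and other modulators, 1 rose and 2 fell with Nutlin-3, and 4 rose and 3 fell in shp63 ON. GRK6, a kinase that desensitises receptors, fell with Nutlin-3 (−0.68, SE 0.06, limma adjusted p = 0.000275). In shp63 ON it was at −0.20 (limma adjusted p = 0.0366), a call lost without any 1 control or shp63_on array. That call was also lost under quantile and cyclic loess normalization. GRK5, a kinase of the same family, fell in shp63 ON (−0.65, SE 0.06), or by −0.41 as the mean of its 2 probe sets. GPSM3 (0.58) and GPSM1 (0.42), which bind inactive Gi subunits, rose in shp63 ON.

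The 30 receptors included 7 rises and 4 falls with Nutlin-3, and 10 rises and 5 falls in shp63 ON. BDKRB1, the inducible bradykinin receptor, which couples to Gq, stood at 8.19 and 8.23 in control, 9.35 and 9.41 with Nutlin-3, and 7.57 and 7.37 in shp63 ON. Its 3 groups were apart in the order seen for RGS2, with a rise of 1.17 with Nutlin-3 (SE 0.08, 2.26-fold, limma adjusted p = 8.62e-05) and a fall in shp63 ON (−0.74, SE 0.08, limma adjusted p = 0.000607). The difference between the treated groups was −1.92 (limma adjusted p = 7.32e-06).

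The thrombin receptor F2R rose with Nutlin-3 (1.05, SE 0.07, limma adjusted p = 7.33e-05), from 7.10 and 7.22 to 8.20 and 8.22. In shp63 ON it stood at 6.98 and 7.06 and did not pass. Its relative F2RL2 rose with Nutlin-3 (0.79, SE 0.09) and by 0.29 in shp63 ON (limma adjusted p = 0.0373). The latter call was lost without control replicate 2 or either shp63_on array, and under median centring, quantile or cyclic loess normalization. P2RY6, a receptor for UDP that couples to Gq, went the other way, from 9.58 and 9.70 in control to 10.72 and 10.65 in shp63 ON (1.04, SE 0.07, limma adjusted p = 6.72e-05). With Nutlin-3 it was at 9.37 and 9.31 (−0.30, limma adjusted p = 0.0244), a call lost without any 1 control or nutlin array or under median centring.

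**Figure D4:**
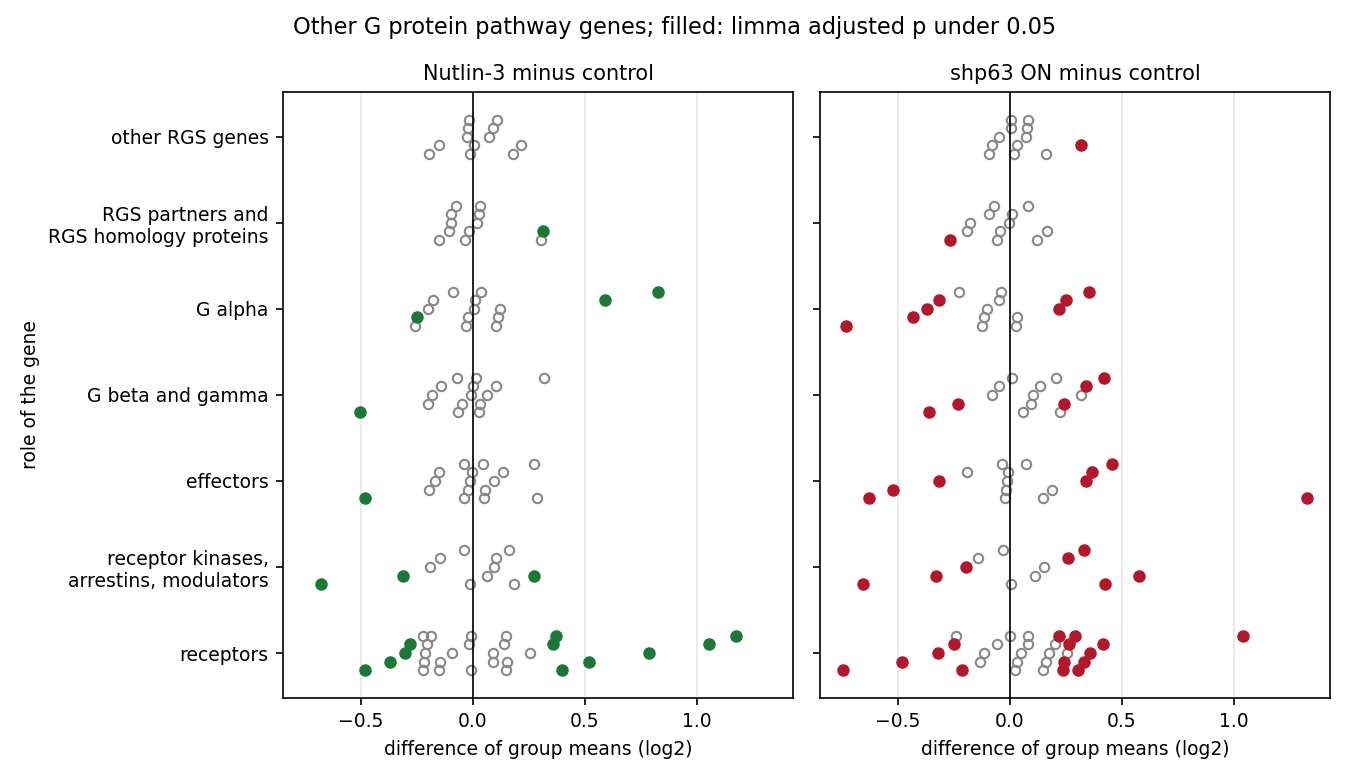
Differences from control (log2) of 112 other G protein pathway genes by role, with Nutlin-3 (left) and in shp63 ON (right). Filled points passed limma at an adjusted p under 0.05 and open points did not, and vertical offsets only separate points. The other RGS genes lie between −0.20 and 0.22 with Nutlin-3 and between −0.09 and 0.32 in shp63 ON, where RGS11 is the 1 filled point, and the widest points are ADCY9 at 1.32 in shp63 ON and BDKRB1 at 1.17 with Nutlin-3.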

How the data were processed

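Total RNA of 6 samples was hybridised to Affymetrix arrays. The table the authors deposited holds log2 intensities, a scale read from the values (2.94 to 14.9), with array medians of 6.57 to 6.70. Per the submitters' processing notes the tool was Partek, and its version, background correction and normalization method were not given in the sources used here. Of 32321 probe sets, 19158 name 1 gene, 1388 several and 11775 none in the platform annotation, and 19128 matched RefSeq by Entrez identifier. For genes with several probe sets (637), the one with the highest mean was used. limma 3.58.1 in R 4.3.3 (lmFit, eBayes) fitted 1 mean per group to all 6 arrays (3 residual degrees of freedom), with Benjamini-Hochberg adjustment over 18404 genes and calls at an adjusted p under 0.05. The fit was tested on simulated data. The RGS genes, pathway lists and marker lists were chosen with earlier results of these data known. Pathway genes were named as the up to 4 called genes per list with the largest difference from control; genes nearest to RGS2 (5) are the smallest distances. UCHL5, the other neighbours, GNA11, GNAQ and GNA14 were added after their values were seen. List members without a probe set of their own were not analysed here. Alternatives were other normalizations, a filter at a mean log2 of 6, eBayes with trend, analysis of variance and a replicate block. Others were fewer arrays, probe set means, and a fit with adjustment over all probe sets.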

Additional observations from a re-analysis of the deposited data

How the results depend on the processing

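Of the 27 differences of the 9 RGS genes, 17 kept their sign in every setting run for them, and the 10 that turned in some setting were at most 0.15 in size. RGS2 ran from 1.75 to 1.87 with Nutlin-3, from −1.86 to −1.70 in shp63 ON and from −3.71 to −3.47 between them. The RGS19 difference with Nutlin-3 ran from −0.26 to −0.16. For called genes (Nutlin-3 and then shp63 ON, each against control, and last shp63 ON against Nutlin-3), the main counts were 3410, 6670 and 9481, and for pathway genes 20, 43 and 55. Per-gene analysis of variance with Benjamini-Hochberg adjustment gave 1236, 3003 and 6089 genes, and 10 and 19 pathway genes for the comparisons with control. A new fit with adjustment over all probe sets gave 1773 genes and 11 pathway genes with Nutlin-3, and 26 pathway genes in shp63 ON. Leaving out 1 array gave 1405 to 2991, 3454 to 6960 and 7356 to 8918 genes, and 9 to 19, 21 to 44 and 45 to 55 pathway genes; a lone array is then assumed to vary like the other groups. The upper ends of the gene ranges against control came from leaving out an array of the group not compared. Median centring gave 2609 higher and 1062 lower with Nutlin-3 (1774 and 1636 as deposited) and 2418 and 3854 in shp63 ON (3634 and 3036). For shp63 ON against Nutlin-3 it gave 3314 and 6565 (5057 and 4424). With the replicate number as a replicate block the counts were 3097, 6530 and 9405 genes and 19, 43 and 55 pathway genes. Deviations of same-numbered arrays correlated at −0.06, −0.02 and 0.11, so the numbers are not taken as pairs. The cause of these moves was not tested, and the fits that leave 1 out also have fewer arrays. Weak signal limits RGS4 and RGS5, and most of the other RGS genes.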
